A study of Drosophila melanogaster with 4 samples.

Results

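The regions described here are those enriched for trimethylation of histone H3 at lysine 27 (H3K27me3) that overlap 2L:15290000-15490000 in Release 5 of the Drosophila melanogaster genome, a 200 kb window around the Snail family genes esg, wor and sna. All regions in 3 deposited lists that overlap the window by at least 1 bp were taken. This gave 5 of the 1486 regions of replicate 1, 6 of the 1459 of replicate 2 and 4 of the 2279 in the list of the whole series, called the series list below. The window was chosen by the starts, ends, gaps and scores of its regions in these same lists, so those values are given as a description and without a test.

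Chromatin immunoprecipitation with sequencing was done on wild-type Oregon-R embryos at 14 to 16 h of development. The series has 2 ChIP libraries and 2 input libraries, and every sample shares this strain, genotype and stage. The labels name the input of each number as the input for the ChIP list of the same number. Whole embryos mix all tissues, so a called region cannot be assigned to a cell type, and a mark in few cells cannot be told apart from less mark per cell. The read depth behind each list is unknown.

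H3K27me3 is written by the Polycomb complex PRC2 and in flies covers many genes for developmental transcription factors as broad domains, where it goes with the silent state. The Snail family encodes zinc-finger proteins that bind E-box sequences and mostly repress transcription, in part through the corepressor CtBP. The 3 genes have partly overlapping roles in neuroblasts, the neural stem cells of the embryo. Beyond this, sna directs formation and invagination of the mesoderm, esg keeps imaginal cells diploid and maintains stem cells in the adult gut and testis, and wor is used in neuroblasts.

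In the Release 6 gene table, which was used for names and order alone, esg comes first along 2L, then wor, then sna. Between esg and wor the table lists 7 genes, of which 2 are protein coding (CG15258 and CG44869) and 5 are long noncoding RNAs. Between wor and sna it lists 5 genes, namely the protein-coding CG4161 and 4 long noncoding RNAs. The nearest neighbours outside the cluster were nht, which encodes a testis-specific TFIID-type subunit, and CG15262 before esg, and Tim17b2, which encodes a subunit of the mitochondrial inner-membrane translocase, and lncRNA:CR45293 after sna. The table and the lists belong to different releases, so the genes were not placed within single regions, and no value below belongs to esg, wor or sna alone. No sequence of the genes or their proteins was used here.

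The window held a pair of long H3K27me3 domains parted by one gap. A fringe of short regions that scored below both domains lay on the side of the lower coordinates, and none on the other. In replicate 1 the first domain ran from 15303781 to 15446951, a width of 143.2 kb, and the second from 15452904 to 15498751, a width of 45.8 kb. Replicate 2 had the first domain at 15303329 to 15446874 (143.5 kb) and the second at 15452844 to 15498598 (45.8 kb). In both replicates the second domain ended past the limit of the window, by 8751 bp and 8598 bp, and it is counted whole here. From end to end the pair measured 195.0 kb and 195.3 kb in replicates 1 and 2.

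**Figure D1:**
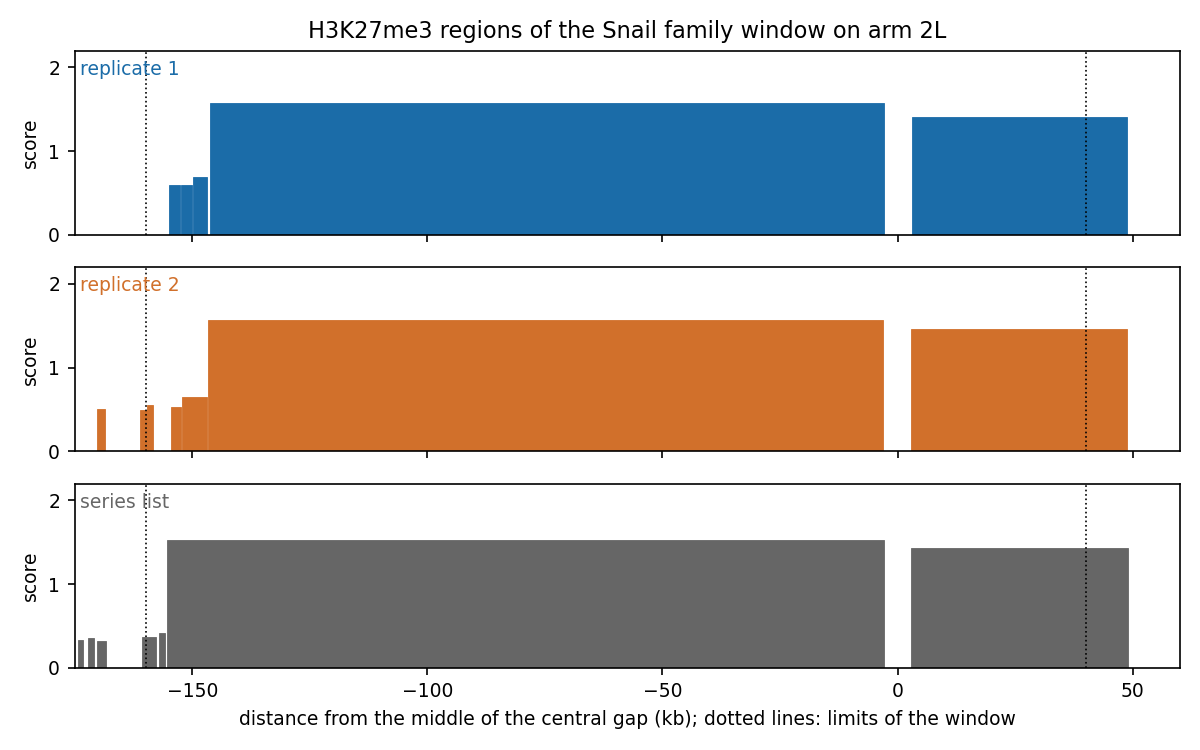
Called regions of the window in replicate 1, replicate 2 and the series list, drawn as bars whose width is the region and whose height is the authors' score (y axis, no unit), against distance from the middle of the central gap in kb (x axis). In each list a first domain of 143.2 to 152.6 kb and a second of 45.8 to 46.1 kb stand on either side of the gap, and short regions with scores under 0.7 lie only to the left.

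Called sequence filled nearly the whole window. It took up 93.9% of the window in replicate 1 and 94.8% in replicate 2, or 94.4% ± 0.66 (SD, n = 2), and 96.6% in the series list. Over arm 2L as a whole the share was 13.5% ± 0.38 (SD, n = 2). The window, 0.869% of the length of 2L, held 6.15% of the called bases of the arm in replicate 1 and 5.97% in replicate 2. Among 597 other windows of 200 kb laid end to end along the 6 major arms, the median share called was 2.52% in replicate 1 and 2.64% in replicate 2. In both replicates the same single window had a share at least as high, on 3R from 12600001 to 12800000, with 99.7% in replicate 1 and 99.9% in replicate 2. The Snail family window was placed to hold its domains and the others were not, so this order describes the locus and does not rank loci.

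**Figure D2:**
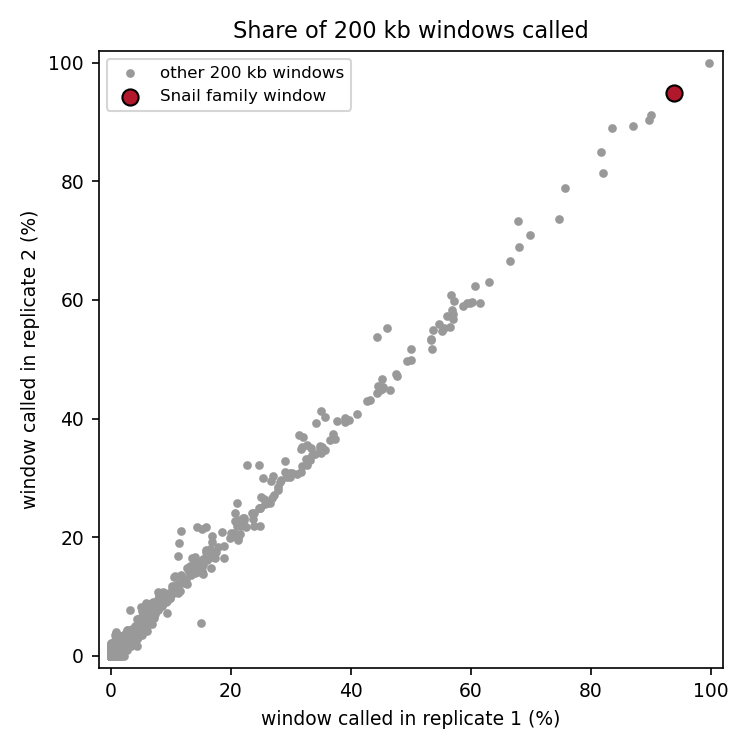
Share of each 200 kb window called in replicate 1 (x axis, %) against replicate 2 (y axis, %), with 1 point per window and the Snail family window in red. The Snail family window lies at 93.9% and 94.8%, below 1 other window, while most windows lie near the origin (median 2.52% and 2.64%).

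The replicates drew the locus nearly alike. They shared 187.1 kb of the 190.4 kb called in either, 98.3%. For the whole of 2L the value was 90.0%. With 93.9% and 94.8% of the window called in replicates 1 and 2, a high value was fixed in advance. The 2 values therefore do not compare agreement at this locus with agreement on the arm. Only 3292 bp of the window were called in 1 replicate alone, 709 bp in replicate 1 and 2583 bp in replicate 2. Of these, 2703 bp, 82.1%, lay outside the long domains, in the fringe before the first one. The other 589 bp lay at the ends of a long domain of 1 replicate, 452 bp of them at the start of the first domain in replicate 2.

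At 3 of their 4 ends the domains were placed within 200 bp of each other. The end of the first domain differed by 77 bp, the start of the second by 60 bp and its end by 153 bp. The start of the first domain, next to the fringe, differed by 452 bp. For comparison, 54 other pairs of regions of at least 40 kb that matched one to one had 108 ends that differed by a median of 72.5 bp, with an upper quartile of 169 bp, and 13 of these ends differed by more than 452 bp.

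The gap between the domains had nearly the same ends in both replicates. No region was called from 15446952 to 15452903 in replicate 1, 5952 bp, or from 15446875 to 15452843 in replicate 2, 5969 bp, a mean of 5960.5 bp ± 12 (SD, n = 2). The series list left 15447051 to 15452813 uncalled, 5763 bp, and all of that stretch was uncalled in both replicates. In no list did a region lie inside the gap.

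Gaps of this kind were few. Where regions of 40 kb or more followed each other, each replicate had 4 gaps under 10 kb, and the one in the Snail family window was the longest in both. The other gaps measured 514 to 1576 bp in replicate 1 and 266 to 1178 bp in replicate 2. Of each set of 4, 2 met a gap of the other replicate. The second recurrent one lay on X, at 7075469 to 7075982 (replicate 1) and 7074664 to 7075841 (replicate 2), so that its ends differed by up to 805 bp, against 77 bp at the Snail family locus. Between regions of at least 10 kb there were 60 gaps under 10 kb in replicate 1 and 55 in replicate 2, the one described here included. Their medians were 1260 bp and 915 bp, and 6 and 4 of them were longer than the one described here. Gaps of 10 kb or more were left out of these counts. Whether reads can be placed in the gap was not tested, so the lack of a call there does not show that the mark is absent.

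The outer edge of the first domain was stepped. In replicate 1, 3 regions led up to it, from 15295059 to 15297255 (score 0.600), from 15297407 to 15299760 (0.595) and from 15300153 to 15303103 (0.690). They lay 151 bp, 392 bp and, before the domain, 677 bp apart. Replicate 2 called the same stretch as 2 regions, from 15295479 to 15297491 (0.527) and from 15297665 to 15303064 (0.653), the latter ending 264 bp before the domain. The highest score in the fringe was thus that of the region next to the domain in both replicates, and all fringe scores were below 0.7 where the domains had more than 1.4.

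Further out, the replicates differed. Replicate 2 had a pair of regions at the limit of the window, from 15288863 to 15290225 (0.493) and from 15290320 to 15291621 (0.551), where replicate 1 had none. The second of these gave the longest stretch called in 1 replicate only, 1302 bp. The last region wholly before the window lay from 15279693 to 15281263 in replicate 2 (0.508), 8.74 kb outside it, and from 15096846 to 15113899 in replicate 1 (1.70), 176 kb outside it. The series list joined the stretch that the replicates cut into 2 or 3 regions to its first domain, which therefore began at 15294467, 9314 bp before that of replicate 1 and 8862 bp before that of replicate 2. It also held regions from 15289160 to 15292264 (0.363) and from 15292887 to 15294072 (0.418). The first overlaps the outer pair of replicate 2, and the second lies where neither replicate had a call.

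**Figure D3:**
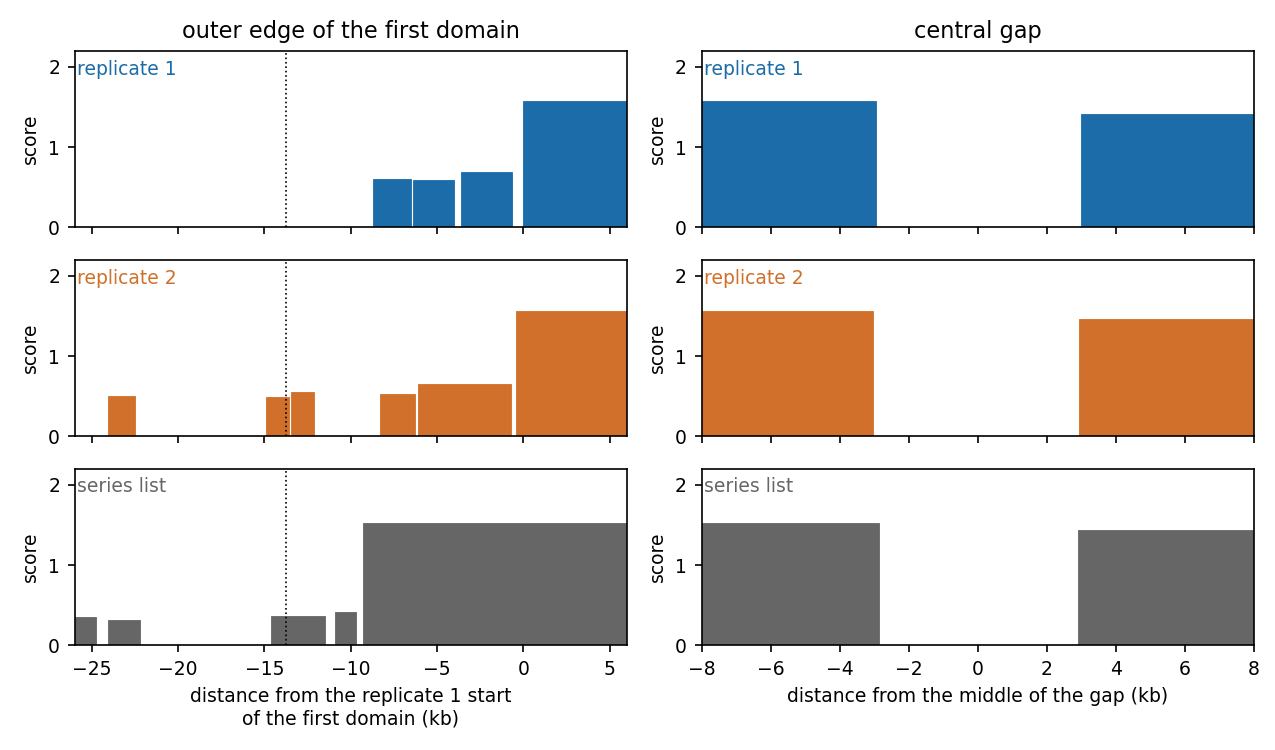
Regions at the outer edge of the first domain (left column, distance in kb from its start in replicate 1) and at the central gap (right column, distance in kb from the middle of the gap), with the authors' score on the y axis and 1 row per list. The edge is cut into 3 regions in replicate 1 and 2 in replicate 2 and is joined to the domain in the series list, while the gap has nearly the same ends in each list (5952, 5969 and 5763 bp).

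The far edge of the second domain had no fringe. No region lay within 15 kb beyond it in any of the 3 lists, against 3 regions within 15 kb of the outer edge of the first domain in replicate 1 and 4 in replicate 2. At the other edges of regions of at least 40 kb on the major arms, edges facing another such region left out, 76 of 148 in replicate 1 (51.4%) and 84 of 156 in replicate 2 (53.8%) had no region within 15 kb. At 14 (9.46%) and 15 (9.62%) of them there were 3 or more. By these counts the far edge of the Snail family locus was of the common kind and its fringed edge of the less common one. The class of 3 or more begins at the count of replicate 1 itself and depends on short cuts between regions. With regions under 1 kb apart joined, the window held 2 regions in replicate 1, its fringe merged into the first domain, and 3 in replicate 2. The other edges were not recounted in that way.

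Beyond the second domain the next region began at 16358705 in replicate 1, after 860 kb with no call, and at 16051591 in replicate 2, after 553 kb. Among the uncalled stretches between neighbouring regions of 2L, 240 in replicate 1 and 242 in replicate 2 with medians of 3.49 kb and 3.73 kb, these ranked second and seventh in length. The region that ended the stretch in replicate 2 was 1.66 kb wide with a score of 0.412. The next region of at least 10 kb began at 16381437 in replicate 1 and 16404281 in replicate 2, 883 kb and 906 kb from the second domain. On the near side the first region of the window followed 181 kb with no call in replicate 1, the 34th longest such stretch of 2L, but only 7.60 kb in replicate 2, the 99th. The closest region of at least 10 kb on that side was a compact one at 15096846 to 15113899 in replicate 1 (17.1 kb, score 1.70) and 15096935 to 15113894 in replicate 2 (17.0 kb, 1.73), 190 kb and 189 kb before the first domain.

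**Figure D4:**
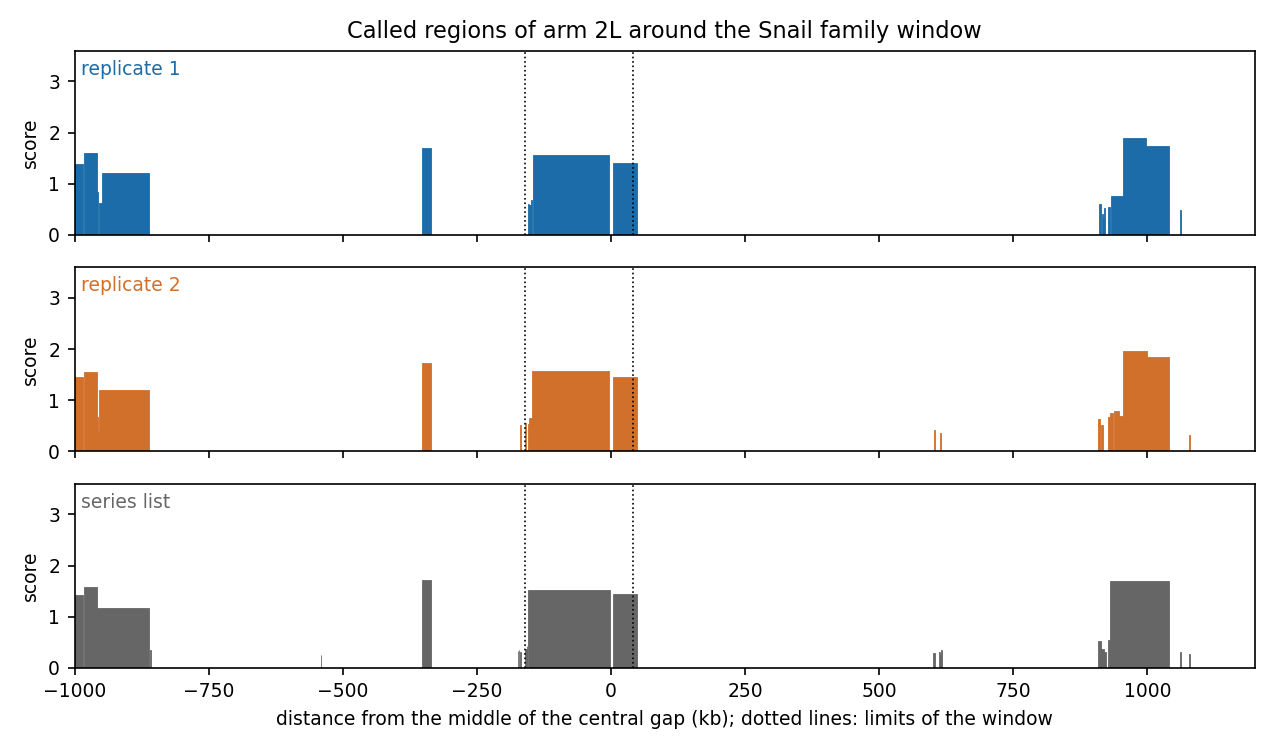
Called regions of 2L around the window, with distance from the middle of the central gap in kb on the x axis, the authors' score on the y axis and 1 row per list. Nothing is called for 860 kb (replicate 1) or 553 kb (replicate 2) to the right of the second domain, and a compact region with a score of 1.70 to 1.73 is the nearest of at least 10 kb to the left.

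For their width, the domains had low scores. The score is the authors' value per region, of unknown scale, and is ranked here only within a list. The score differences between replicates given below take both lists to share the same scale, which was not tested. The first domain, the third longest region of 2L in each replicate, scored 1.57 in replicate 1 and 1.56 in replicate 2. Of the 22 regions of at least 100 kb in replicate 1, median score 2.07, 20 scored higher. So did 20 of the 23 in replicate 2, median 2.05, and 21 of the 27 in the series list, median 1.99. Each total includes the first domain itself. Over all regions of at least 10 kb it ranked 150th of 300 in replicate 1 and 153rd of 311 in replicate 2, in the middle.

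The second domain had scores of 1.41 and 1.46. Of the regions of 40 to 60 kb, it was exceeded by 25 of 30 in replicate 1 (median 1.96) and by 26 of 34 in replicate 2 (median 1.95). In the series list 29 of 46 exceeded it (median 1.74), a smaller share. These totals include the second domain itself. The first domain had the higher score of the pair in every list, by 0.16 in replicate 1, 0.11 in replicate 2 and 0.092 in the series list. Between replicates the score moved by 0.0063 for the first domain and 0.044 for the second, and the 54 other pairs of at least 40 kb moved by a median of 0.032 and by at most 0.14. These shifts between lists do not measure the spread of a step between 2 regions of the same list. With 2 replicates the step was not tested.

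Set beside the longest regions of 2L, the first domain was like them in width and scored lower than most of them. The regions longer than it were one of 178 kb, at 11316994 to 11495123 (replicate 1, score 2.00) and 11316890 to 11495174 (replicate 2, score 1.99), and one of 151 kb, at 5366350 to 5517059 (2.34) and 5366157 to 5517452 (2.37). The next in width, at 12566286 to 12689761 in replicate 1 (123 kb) and 12567465 to 12689735 in replicate 2 (122 kb), had 1.98 and 2.03. In replicate 1 the first domain of the Snail family window had the lowest score of the 6 regions of at least 100 kb on the arm. In replicate 2 it had the lowest but one of 7, above a 110 kb region at 21795395 to 21905576 with 1.27. In the series list, where the first domain had 1.53, a 114 kb region at 21795407 to 21909676 also scored lower, with 1.20.

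**Figure D5:**
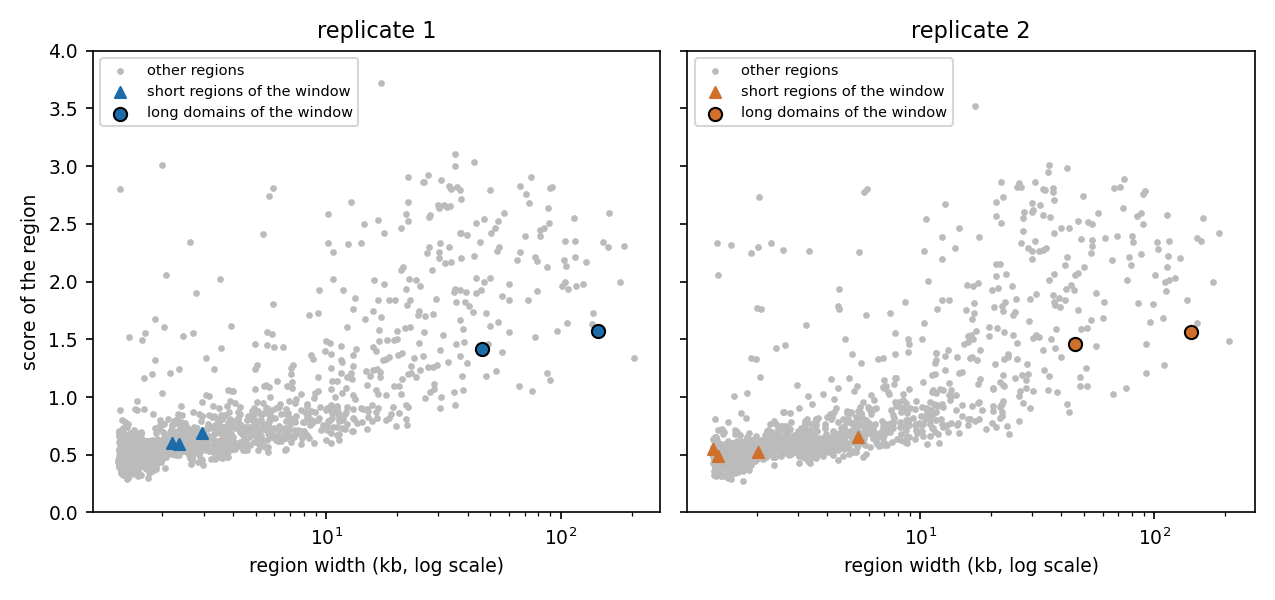
Score (y axis, the authors' value) against width in kb (x axis, log scale) for every region of replicate 1 and replicate 2, with the long domains of the Snail family window as outlined circles and its short regions as triangles. The domains lie low among regions of like width (1.57 and 1.41 in replicate 1, 1.56 and 1.46 in replicate 2), while the short regions, from 0.493 to 0.690, lie within the cloud.

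The short regions had scores near the middle of the list in replicate 1, and from low to near the middle in replicate 2. Those of replicate 1 had higher scores than 44.5% to 60.4% of its regions, and those of replicate 2 than 20.2% to 58.3%. In width, the outer pair that only replicate 2 had ranked 1369th and 1457th of its 1459 regions, among the shortest. Of the series-list bases in the window, 96.8% were called in both replicates, and 2869 bp were called in neither. On 2L 81.9% were called in both. The window was nearly full in every list, which alone sets a high share, so the values do not compare agreement. The series list is not independent of the replicates.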

How the data were processed

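Enriched regions were read from the deposited lists, which give a start, an end and 1 score per region in 1-based GFF3 form, per the file headers. The score in the deposited lists was made by the authors; no source used here gives its scale, its caller, its threshold or how the series list was made. The submitters' processing notes list the short-read aligner Bowtie 0.12.7 and name no build. Coordinates are taken as Release 5 from the sequence lengths that the headers list. The inputs were not analysed on their own, and depth is unknown, so no interval that needs it is given. The labels do not say whether the replicates came from separate embryo collections, so an SD over n = 2 may be technical.

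The members, the named genes (the 3 members, the genes between them and those next to them, by name) and the comparisons were chosen with earlier results of these data known. The limits of 40 kb, 60 kb and 100 kb for width, 10 kb for gaps and 15 kb and 10 kb at edges were set after the regions were seen. All 3 genes matched the gene table, of Release 6, which was used for names and order only. Planned descriptions of proteins and promoter motifs, and of the related genes scrt, CG12605 and Kah, were not run. No test was made. Shared bases are bases called in both replicates divided by those called in either. Python 3.11.15, numpy 2.4.6, scipy 1.17.1 and matplotlib 3.10.9 were used. The code that marks called bases, joins regions and finds unbroken stretches recovered the known layout of 20 of 20 simulated pairs of lists. The run was set to stop unless all were recovered. The code for ranks, domain edges and gaps between long domains was not part of that check.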

Additional observations from a re-analysis of the deposited data

How the results depend on the processing

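With only regions scoring no less than the median of their list, the share of the window called went from 94.4% to 92.3%, the mean number of regions from 5.5 to 3.0 and the series-list bases called in both replicates from 96.8% to 95.9%. Both long domains passed that limit in every list. Joining regions under 1 kb apart left a mean of 2.5 regions, took the longest to 151.6 kb on average as the fringe merged with the first domain, and raised the shared bases to 98.9%. The central gap is too long for that setting to close. Shared bases were 98.0% for pairs with 50% reciprocal overlap and 97.0% with the window widened by 50 kb on each side. The share called was 66.2% in the widened window, which takes in the uncalled sequence beyond, and 96.3% with the window narrowed by 20 kb on each side. Leaving out either replicate gave 93.9% to 94.8% of the window, 5 to 6 regions, a longest region of 143.2 to 143.5 kb with a score of 1.56 to 1.57, and 97.2% to 98.1% of series-list bases called. Shared bases need both replicates. No paired analysis was possible because no test was made and lists for the inputs were not analysed here. What depth limits was not measured, since it is unknown.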
